A study of Mus musculus with 2 samples.

Results

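The genes described here build and maintain the light-sensing outer segment of the photoreceptor and the cilium that carries it. They are 43 named genes of 23356 gene symbols in the deposited transcript table, chosen by name with earlier results of these data known. A gene's level was the sum of its transcripts in FPKM, fragments per kilobase of transcript scaled to the size of the library, a unit that allows levels to be compared between genes. All but 1 of the symbols matched the table's gene column directly, giving 42 genes, and Rp2 was found under its RefSeq synonym Rp2h. A gene counted as measured if either library gave it 1 FPKM or more, which held for 42 of the 43 and not for Ush1c. The members span 82 of the 30608 transcript entries, and 10 of these 82 were listed at 0 in both libraries.

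The outer segment is a modified primary cilium packed with membrane discs that hold the phototransduction proteins. It has no ribosomes, so every protein it uses is made in the inner segment and passes through a narrow connecting cilium, whose axoneme is rooted in a basal body. Intraflagellar transport (IFT) trains pulled by kinesin and dynein motors carry cargo along the axoneme, the BBSome coat complex sorts membrane proteins into and out of the cilium, and a separate set of carriers brings in proteins with lipid tails. Mutations in these genes cause retinitis pigmentosa, Leber congenital amaurosis, Bardet-Biedl syndrome and Usher syndrome.

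RNA was sequenced from dissected mouse retinas at postnatal day 15, with 1 control and 1 triple mutant library. Both groups were homozygous for floxed Dnmt1, Dnmt3a and Dnmt3b, which encode DNA methyltransferases. The control was Rx-Cre negative (strain label C57BL/6) and the mutant Rx-Cre positive (strain label C57BL/7), the Rx promoter being one that is active in the early eye field and its retinal descendants. The sources used here give neither the number of animals behind each library nor the floxed exons. With 1 library per group no difference has a replicate check, no test was run, and each interval given is an exact 95% counting interval that covers counting error only. Every statement on a difference compares these libraries, not the genotypes.

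The deposited values resolved 48.3 fragments per kilobase at 1 FPKM in control and 56.2 in mutant retina. Summed over transcripts, Dnmt1 was at 21.7 FPKM in control and 11.6 in mutant retina, Dnmt3a at 87.4 and 56.0, and Dnmt3b at 1.03 and 0.827. The tissue label was checked against rod markers, of which 8 of 9 could be used (the other had an excessive-data status). Their summed level was 10549 FPKM in control and 9400 in mutant retina, Gnat1 giving 4266 and 3211 of it. The rod markers did not all go 1 way: 5 of the 8 fell and 3 rose. Among those that rose were Nrl (441 to 692 FPKM) and Nr2e3 (273 to 443 FPKM). The 7 cone markers summed to 930 and 422 FPKM, and the 9 Mueller glia markers to 1571 and 1278 FPKM, of which Glul alone held 952 and 561, with 6 of the 9 higher in the mutant and a median log2 ratio of 0.15. Markers of lens, pigment epithelium and microglia differed more. All 6 measured of 9 lens markers were at least 2-fold lower in the mutant once 1 FPKM was added to each value. Summed over the 9, lens markers went from 155 to 7.52 FPKM, with Lim2 listed at 0 in the mutant. By the same rule, 8 of 9 measured of 10 pigment epithelium markers were lower (135 to 7.86 FPKM over the 10). All 9 microglia markers were higher, 7 of them at least 2-fold by that rule (27.9 to 120 FPKM summed). The part of such cells in the values of the cilium genes was not tested. In a whole tissue, fewer cells of a type and less RNA per cell cannot be told apart.

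The levels of these genes were close to each other in the 2 libraries. Size was taken as the log2 ratio, mutant over control, of the FPKM values with 1 added to each, which understates the ratio of low genes. No member had a log2 ratio of at least 1 in either direction, where 1.84% of the 13280 measured genes were higher and 0.648% lower by that rule. At a log2 ratio of at least 0.5, 1 member was higher (Ift57) and 0 were lower, against 5.37% and 4.74% of all measured genes. The 42 ratios ran from -0.46 (Fam161a) to 0.75 (Ift57) with a median of -0.003, and 21 of 42 were below 0, against 50% of all measured genes. The middle 50% of all measured genes lay between -0.16 and 0.15. In the authors' deposited table, none of the 66 member transcripts they tested was called significant, the lowest q-value being 0.628 (a Cdh23 transcript), while 69 of all 19556 tested transcripts (0.353%) were.

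**Figure D1:**
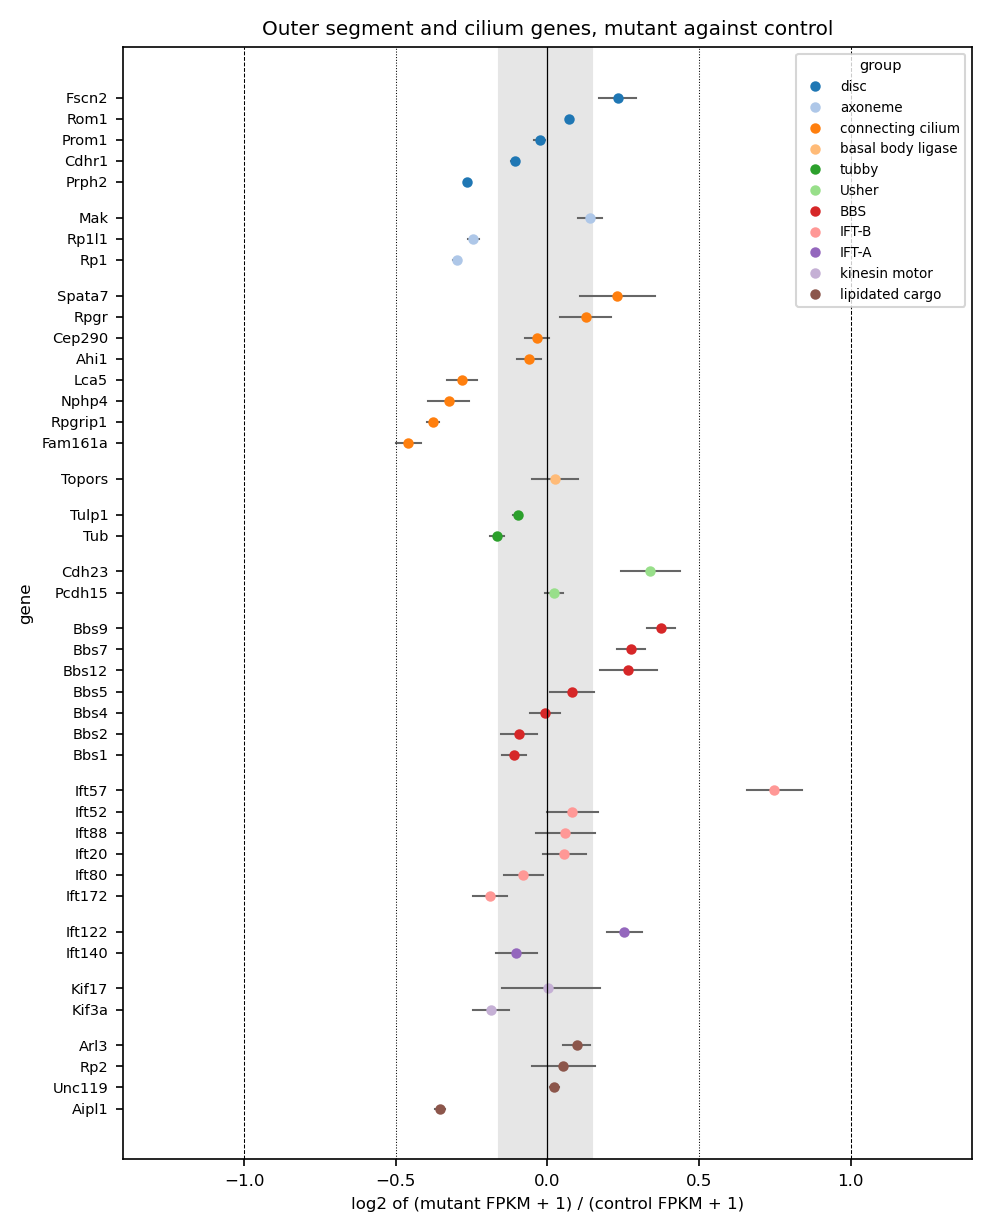
Log2 of (mutant FPKM + 1) / (control FPKM + 1) for the 42 measured genes, in groups by role, with bars for 95% counting intervals and grey shading for the middle 50% of all measured genes; dotted and dashed lines mark 0.5 and 1 either way. Ift57 is the only gene past a dotted line, and Fam161a, Rpgrip1 and Aipl1 lie farthest to the left.

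Although the members had a median near 0, the groups differed in where they lay. Summed levels in the mutant came to 80.8% of control for the 8 connecting cilium genes (415 to 335 FPKM), 85.2% for the 3 axoneme genes (534 to 455 FPKM), 88.0% for the 2 kinesin motor genes (30.3 to 26.7 FPKM) and 92.8% for the 5 disc genes (3917 to 3636 FPKM). The same sum came to 95.2% for the 4 lipidated cargo carriers (2103 to 2003 FPKM), 103% for the 3 Usher genes (40.3 to 41.7 FPKM), 107% for the 8 IFT genes (165 to 177 FPKM) and 109% for the 7 BBS genes (261 to 285 FPKM). Such sums can rest on few genes. Most of the fall in the connecting cilium sum lay in Rpgrip1 (170 to 131 FPKM) and Fam161a (116 to 84.1 FPKM). Most of the rise in the IFT sum lay in Ift57 (11.3 to 19.6 FPKM). Median log2 ratios followed a similar order, at -0.24 for axoneme, -0.17 for connecting cilium, -0.03 for disc, 0.04 for lipidated cargo, 0.06 for IFT and 0.08 for BBS genes. These medians rest on 3 to 8 genes each, and the ranges of all of these groups overlapped. In the other deposited table, where the median of all genes was higher by 0.05, the disc median was 0.03.

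Among the disc genes, levels ran from 1925 FPKM (Prph2) to 47.1 FPKM (Fscn2) in control retina. Prph2, which encodes the tetraspanin peripherin-2 of the disc rim, had the highest level of all members at 1925 FPKM in control and 1602 in mutant retina. That is a mutant to control fold of 0.832 (interval 0.827 to 0.837). Its partner at the rim, Rom1, was at 1297 FPKM in control and 1364 in mutant retina, a fold of 1.05 (1.04 to 1.06). The 2 rim genes, whose proteins form complexes with each other, therefore lay on opposite sides of equality, with a Prph2 log2 ratio of -0.27 and a Rom1 log2 ratio of 0.07. Cdhr1, a photoreceptor cadherin found where new discs form, was at 391 FPKM in control and 363 in mutant retina (fold 0.928). Prom1, the membrane protein prominin-1 of nascent discs, was at 256 and 251 FPKM (fold 0.982, interval 0.970 to 0.995). Fscn2, an actin-bundling protein of photoreceptors, was the lowest of the 5 in the control at 47.1 FPKM and the highest in ratio, with 55.5 FPKM in the mutant (fold 1.18, interval 1.13 to 1.23). Counting error is small for such abundant transcripts, so these intervals say how well each library was counted and nothing of how much retinas differ.

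In the axoneme group, the microtubule-binding doublecortin-domain genes Rp1 and Rp1l1 had similar ratios. Rp1 was at 335 FPKM in control and 272 in mutant retina (fold 0.813, interval 0.806 to 0.820), and Rp1l1 at 142 and 119.5 FPKM (fold 0.843, interval 0.832 to 0.854). Mak, a kinase that limits cilium length, lay on the other side, at 57.8 and 63.8 FPKM (fold 1.10, interval 1.07 to 1.13).

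Of the 8 connecting cilium genes, 6 were lower in the mutant library. Fam161a, whose protein binds microtubules along the connecting cilium, had the lowest ratio of all members: 116 FPKM in control and 84.1 in mutant retina, a fold of 0.725 (interval 0.704 to 0.747), with 5.82% of all measured genes at or below its log2 ratio. Rpgrip1, the anchor that holds RPGR in the connecting cilium, was at 170.2 and 131 FPKM (fold 0.769, interval 0.759 to 0.780). Rpgr, which encodes the protein so anchored, lay on the other side of equality. It was at 10.4 FPKM in control and 11.5 in mutant retina (fold 1.10, interval 1.03 to 1.17). Nphp4, a transition zone scaffold, was at 13.0 and 10.2 FPKM (fold 0.782, interval 0.743 to 0.824). Spata7, a further partner of RPGRIP1, was higher in the mutant, at 8.32 and 9.92 FPKM (fold 1.19, interval 1.09 to 1.31). Lca5, which encodes lebercilin, an IFT-binding protein, was at 32.0 and 26.2 FPKM (fold 0.817, interval 0.788 to 0.847). The large transition zone protein gene Cep290 stood at 22.3 and 21.7 FPKM, with an interval that spans equality (fold 0.975, 0.947 to 1.004). Ahi1, which encodes jouberin of the transition zone, was at 42.4 and 40.6 FPKM (fold 0.958). Exons of Rpgrip1 overlap those of Supt16 on the opposite strand over 1057 bases, and those of Cep290 overlap 4930430F08Rik over 881 bases. The sources used here do not say whether fragments were counted by strand, and Supt16 was at 39.5 FPKM in control and 38.0 in mutant retina.

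The promoters of these genes differ in base composition, which matters for a study of DNA methyltransferases because the methylated bases lie in CG pairs. The window used was 250 bases before to 50 after each gene's start (RefSeq, GRCm38.p6), and 38 of the 42 measured members had one. The motif GTNNCCNNNGNAAC, the form of the X-box that RFX factors bind in cilium genes, and TAATCC, the core that the photoreceptor factor CRX binds, were searched on both strands, and neither overlaps the other in the sequences shown. The first 2 sequences are upstream DNA of Fam161a, the gene of the lowest ratio, and of Nphp4, a connecting cilium gene with an X-box match, shown to set a promoter without CG beside one that holds CG pairs. Capitals mark the motif match. Both windows lie within the annotated span of their own gene (Fam161a at chr11:23007531-23030788, Nphp4 at chr4:152476706-152563183, GENCODE M21 on GRCm38) because a longer transcript begins upstream, and hold no annotated exon. The Fam161a window is chr11:23013137-23013386 (plus strand) and the Nphp4 window chr4:152477892-152478141 (plus strand).
Fam161a: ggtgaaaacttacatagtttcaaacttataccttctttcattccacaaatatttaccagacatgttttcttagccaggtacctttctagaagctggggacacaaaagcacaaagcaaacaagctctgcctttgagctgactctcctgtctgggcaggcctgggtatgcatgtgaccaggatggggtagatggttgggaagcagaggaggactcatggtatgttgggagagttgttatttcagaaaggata
Nphp4: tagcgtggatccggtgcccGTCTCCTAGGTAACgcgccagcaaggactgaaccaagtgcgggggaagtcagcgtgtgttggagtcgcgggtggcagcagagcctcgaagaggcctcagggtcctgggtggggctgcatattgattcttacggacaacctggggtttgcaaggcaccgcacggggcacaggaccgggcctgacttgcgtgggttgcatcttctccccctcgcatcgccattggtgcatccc
The 250 bases of Fam161a hold 0 CG pairs and no match to either motif. The 250 bases of Nphp4 hold 17 CG pairs and 1 X-box match that begins 231 bases before the start.

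Topors, which encodes a ubiquitin and SUMO ligase found at the photoreceptor basal body, was at 12.9 FPKM in control and 13.1 in mutant retina. Both tubby family genes, whose proteins bind membrane phosphoinositides and help to bring receptors into cilia, were slightly lower in the mutant. Tulp1, the photoreceptor form, was at 703 and 657 FPKM (fold 0.934), and Tub at 102 and 91.0 FPKM (fold 0.890, interval 0.875 to 0.904). Exons of Tub overlap Ric3 on the opposite strand over 149 bases.

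Of the 4 carriers of lipid-tailed cargo, 3 lay near equality and 1 was lower in the mutant library. Unc119, which binds the myristoylated transducin subunit, was level at 1260 FPKM in control and 1280 in mutant retina (fold 1.02, interval 1.01 to 1.03). Arl3, the small GTPase that releases cargo from UNC119 and PDE6D, was at 219 and 234 FPKM (fold 1.07, interval 1.04 to 1.10). Rp2, which encodes the GTPase-activating protein of ARL3, was at 4.59 and 4.79 FPKM (fold 1.04, interval 0.957 to 1.14). Aipl1, the chaperone needed to assemble the rod and cone phosphodiesterase, stood apart at 619.7 FPKM in control and 485 in mutant retina (fold 0.782, interval 0.773 to 0.791). Upstream of Aipl1 (chr11:72037510-72037759, minus strand, just before the gene at chr11:72027963-72037509), the sequence is poor in CG and holds the CRX-type core. It is shown as a promoter of a photoreceptor-specific gene of this type, with the core in capitals, read on the opposite strand to the motif as written above.
Aipl1: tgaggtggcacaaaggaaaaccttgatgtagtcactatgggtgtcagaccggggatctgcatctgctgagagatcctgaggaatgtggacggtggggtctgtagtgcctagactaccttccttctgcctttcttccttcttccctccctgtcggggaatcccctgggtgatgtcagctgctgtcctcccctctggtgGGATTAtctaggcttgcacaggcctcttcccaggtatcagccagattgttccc
These 250 bases hold 3 CG pairs, and the match begins 53 bases before the start. They also hold 1 match to TGCTGA, part of the site that the rod factor NRL binds, left in lower case.

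**Figure D2:**
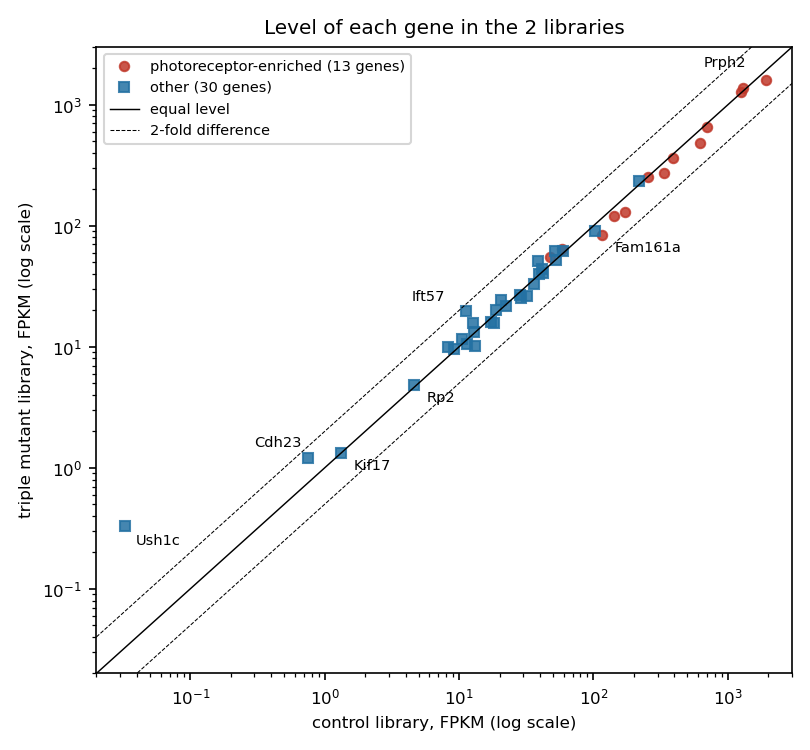
Level of each of the 43 genes in FPKM in the control library (x axis, log scale) and the triple mutant library (y axis, log scale), with photoreceptor-enriched genes in red and the others in blue. Most points lie along the solid line of equal level from Rp2 at 4.59 FPKM to Prph2 at 1925 FPKM, and Ush1c, below 1 FPKM in both libraries, is the only gene past a dashed 2-fold line.

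Of the 7 BBS genes, 4 were higher in the mutant library and 3 lower, and their median of 0.08 (log2) lay inside the middle 50% of all measured genes. Bbs9 had the largest ratio of the 7, at 39.0 FPKM in control and 50.8 in mutant retina (fold 1.30, interval 1.26 to 1.35). Bbs7 was at 51.4 and 62.3 FPKM (fold 1.21, interval 1.17 to 1.25). It came second by log2 ratio, at 0.274 beside 0.266 for Bbs12, though not by fold. The products of Bbs9 and Bbs7 belong to the BBSome itself. Bbs12, a chaperonin-like protein that helps to assemble the BBSome, was at 12.8 and 15.6 FPKM (fold 1.22, interval 1.14 to 1.31). BBSome subunit genes of lower ratio were Bbs5 (41.7 and 44.2 FPKM), Bbs4 (52.2 and 51.9 FPKM), Bbs2 (28.5 and 26.6 FPKM) and Bbs1 (35.9 and 33.2 FPKM), with folds of 1.06, 0.994, 0.935 and 0.924. Subunits of 1 complex thus ran from a fold of 0.924 to 1.30 between these libraries. Exons of Bbs4 overlap Adpgk over 194 bases and those of Bbs12 overlap Cetn4 over 32 bases, both on the opposite strand.

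Among the IFT genes, Ift57 stood apart. Ift57 encodes a peripheral IFT-B subunit and was at 11.3 FPKM in control and 19.6 in mutant retina, a fold of 1.74 (interval 1.63 to 1.86), from about 1333 and 2695 recovered fragments. Its log2 ratio of 0.75 was at or above that of 97.1% of all measured genes. It had 1 transcript in the table, so its fragments were not divided among listed isoforms. The other 5 IFT-B genes stayed within a fold of 0.869 to 1.06. They were the core subunit genes Ift52 (18.8 and 19.95 FPKM), Ift88 (9.15 and 9.57 FPKM) and the peripheral subunit genes Ift20 (59.0 and 61.4 FPKM), Ift80 (17.1 and 16.2 FPKM) and Ift172 (18.1 and 15.8 FPKM). Of the IFT-A genes, which serve return transport, Ift122 was at 20.4 and 24.4 FPKM (fold 1.20, interval 1.15 to 1.25) and Ift140 at 11.4 and 10.5 FPKM (fold 0.926). Kif3a, a subunit of the heterotrimeric kinesin that drives the trains outward, was at 29.0 and 25.3 FPKM (fold 0.874, interval 0.837 to 0.912). Kif17, the homodimeric kinesin, had a low level in either library, 1.32 and 1.33 FPKM (fold interval 0.825 to 1.23), and its exons share 74 bases with Sh2d5 on the same strand.

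Ift57 and Bbs7 both carry the X-box pattern close to their start. Their upstream sequences are shown as the member of the highest log2 ratio and the BBS gene of the second highest log2 ratio. Capitals mark the match, which in Ift57 is read on the opposite strand to the motif as written above. The Ift57 sequence is chr16:49699044-49699232 (plus strand), which ends where the annotated gene begins (chr16:49699233-49765126), and the Bbs7 sequence is chr3:36613478-36613639 (minus strand), which borders the gene at chr3:36573142-36613477.
Ift57: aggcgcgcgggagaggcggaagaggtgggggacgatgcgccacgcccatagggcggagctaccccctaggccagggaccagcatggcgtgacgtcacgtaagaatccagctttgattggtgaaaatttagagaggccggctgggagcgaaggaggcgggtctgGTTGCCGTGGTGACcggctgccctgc
Bbs7: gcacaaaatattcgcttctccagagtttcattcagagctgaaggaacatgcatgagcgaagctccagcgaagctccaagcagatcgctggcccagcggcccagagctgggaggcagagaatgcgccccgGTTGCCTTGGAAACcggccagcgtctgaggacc
The match begins 87 bases in Ift57 and 121 bases in Bbs7 before the start used for the promoter window. That start lies 61 and 88 bases inside the annotated gene, and the exon bases between are not shown. The sequences shown have 189 and 162 bases with 16 and 9 CG pairs. Across the set, 6 of 38 member promoters (15.8%) held the X-box pattern, against 2.62% of 10363 measured genes with a promoter. They were Bbs1, Bbs4 and Bbs7 of 7 BBS genes, Ahi1 and Nphp4 of 8 connecting cilium genes, and Ift57 of 5 IFT-B genes. Their log2 ratios spread from -0.33 (Nphp4) to 0.75 (Ift57), with Bbs1 at -0.11, Ahi1 at -0.06, Bbs4 at -0.01 and Bbs7 at 0.27, so carrying the pattern did not come with 1 direction.

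Of the 3 Usher genes, 1 was well expressed and the other two were near or below 1 FPKM. Pcdh15, the tip-link protocadherin of hair cells that photoreceptors also express, was level at 39.5 FPKM in control and 40.1 in mutant retina (fold 1.02, interval 0.994 to 1.04). Cdh23, its cadherin partner in hair cells, was at 0.750 and 1.21 FPKM (fold 1.61, interval 1.42 to 1.82), from about 397 and 744 fragments. Ush1c, the scaffold harmonin, was at 0.0328 FPKM in control retina, about 4 fragments, and 0.328 in the mutant, about 35 fragments. Its fold of 9.999 has an interval of 3.45 to 37.4, and both levels are below the 1 FPKM minimum.

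Although its sum was level, Pcdh15 differed between the libraries in isoform use. Of 11 members with several transcripts and at least 5 FPKM in both libraries, 1 (9.09%) had a transcript whose share of the gene differed by at least 20 points, against 64 of 2426 genes (2.64%). Transcript NM_001142740 was at 15.6 FPKM in the control (39.5% of the gene) and 2.15 in the mutant (5.37%). By contrast, NM_001142736 went from 0.00655 to 9.31 FPKM (23.2% in the mutant) and NM_001142735 from 0.00353 to 4.07 FPKM (10.1%). These 3 transcripts differ by only a few bases in length, at 6917, 6926 and 6932 bases, and their sum was 15.6 FPKM in control and 15.5 in mutant retina (39.5% and 38.7% of the gene). The longest transcript, NM_001142760 of 9104 bases, kept the larger share at 22.3 and 23.4 FPKM (56.4% and 58.3%). Fragments of transcripts this alike are divided among them by the authors' estimate, and 8 of the 14 listed Pcdh15 transcripts were at 0 in both libraries. Whether the exchange is one of splicing or of that division was not tested.

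**Figure D3:**
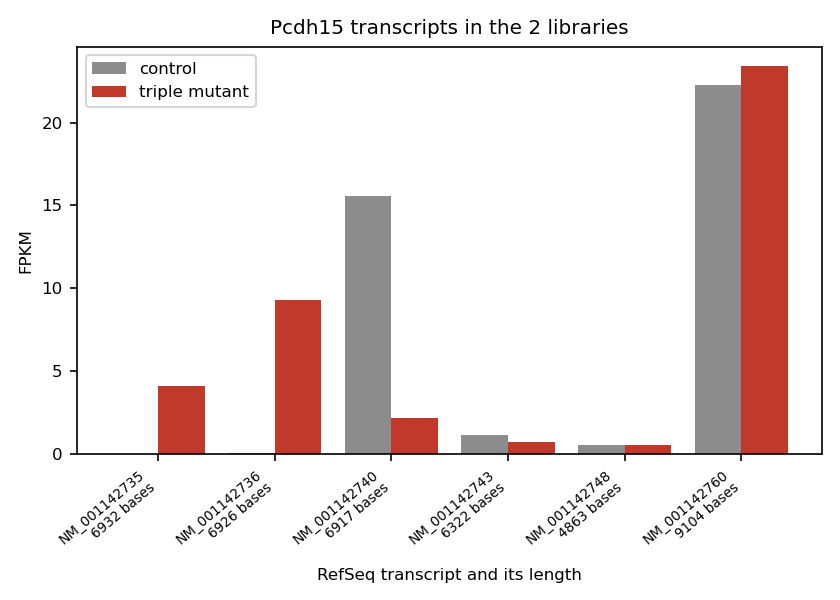
FPKM of the 6 Pcdh15 transcripts listed above 0, in the control (grey bars) and triple mutant (red bars) libraries, each named with its length in bases. The 3 transcripts of 6917 to 6932 bases exchange places while their sum stays at 15.6 and 15.5 FPKM, and the 9104-base transcript is the highest in both libraries.

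The members were also divided by where each gene is used, a split chosen with earlier results of these data known. The 13 members with expression enriched in photoreceptors (Prph2, Rom1, Cdhr1, Prom1, Fscn2, Rp1, Rp1l1, Mak, Rpgrip1, Tulp1, Unc119, Aipl1 and Fam161a) had a median log2 ratio of -0.11, with 9 of 13 below 0. The 29 measured others had a median of 0.02, with 12 of 29 below 0. They include genes that ciliated cells of many tissues express, and also Tub and the Usher genes Cdh23 and Pcdh15. The summed level was 7320 FPKM in control and 6727 in mutant retina for the first (91.9%), and 965 and 994 FPKM for all 30 of the second (103%). The difference of medians was -0.13, and the 2 sets overlapped between log2 ratios of -0.33 and 0.23. For comparison, 17 usable of 18 rod phototransduction genes had a median of -0.16, with 15 below 0 and a summed level in the mutant of 85.5% of control. The 12 cone phototransduction genes had a median of -0.88, with 11 below 0 and a sum of 67.9%. That sum includes Gnb3, the 1 gene of the list above 0, at 218 FPKM in control and 347 in mutant retina (fold 1.59). The summed levels of the photoreceptor-enriched members and of the other members both lay nearer to the rod list than to the cone list. The part of cone RNA in these values was not tested.

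**Figure D4:**
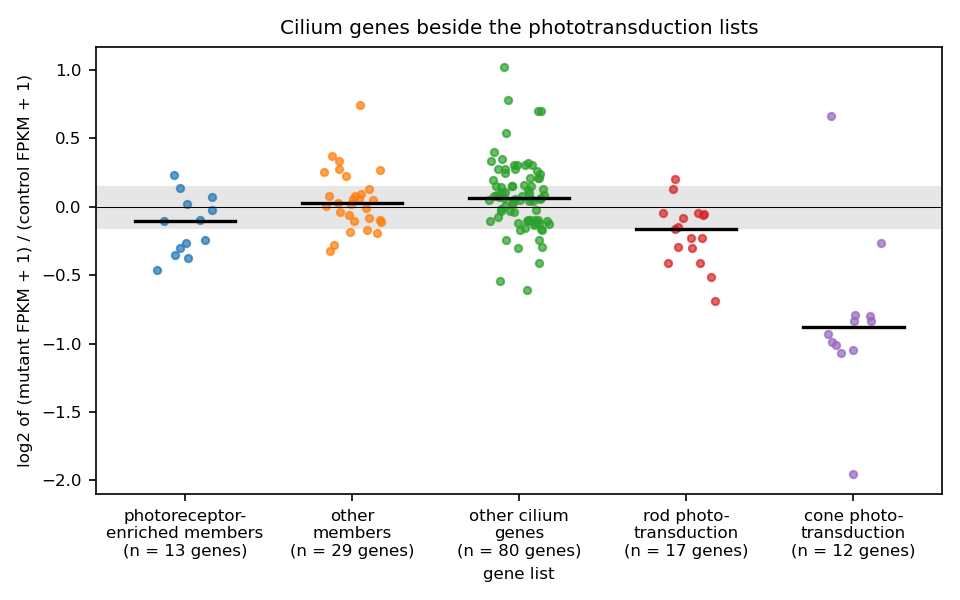
Log2 of (mutant FPKM + 1) / (control FPKM + 1) for each gene (points) of 5 lists, with a black line at the list's median and grey shading for the middle 50% of all measured genes. The medians are -0.11 and 0.02 for the photoreceptor-enriched and other members, 0.06 for other cilium genes, -0.16 for rod and -0.88 for cone phototransduction genes.

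The photoreceptor-enriched and other members also differed in promoter composition. The ratio of observed to expected CG pairs had a median of 0.350 in the 11 photoreceptor-enriched members with a promoter (7 CG pairs in 300 bases) and 0.748 in the 27 others (22 CG pairs), beside 0.772 in 10363 measured genes. The rod list, at 0.308 over 13 genes, and the cone list, at 0.133 over 7 genes, were as poor in CG. None of the 11 photoreceptor-enriched promoters held the X-box pattern, against 6 of 27 others (22.2%). The CRX-type core TAATCC was in 3 member promoters (7.89%), those of Aipl1, Rpgrip1 and Bbs1, against 5.91% of measured genes and 7 of 13 rod genes (53.8%). By the split, that was 2 of 11 photoreceptor-enriched promoters (18.2%) and 1 of 27 others (3.70%). The NRL-type TGCTGA was in 5 member promoters (13.2%), against 14.9%. By the split, that was 2 of 11 (18.2%) and 3 of 27 (11.1%). Across the 38 members the observed to expected ratio and the log2 ratio had a Pearson r of 0.25 and a Spearman coefficient of 0.19, and across all measured genes -0.01 and 0.04. These are descriptions across genes that share the same 2 libraries, and genes are not independent replicates.

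**Figure D5:**
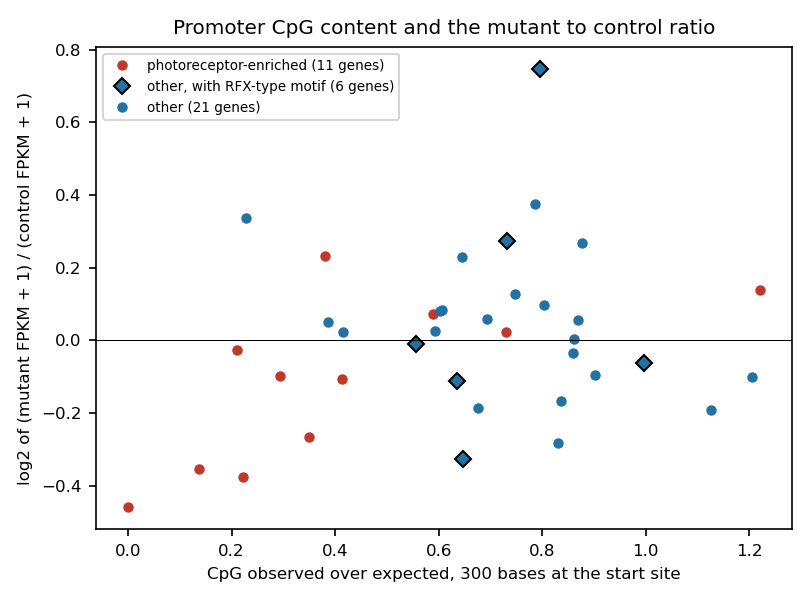
Observed over expected CG pairs in the 300-base window at the start site (x axis) and log2 of (mutant FPKM + 1) / (control FPKM + 1) (y axis) for 38 genes, with photoreceptor-enriched genes in red, the others in blue, and diamonds for genes with the X-box pattern. Red points crowd the left, around a median of 0.350, and the diamonds spread from -0.33 to 0.75.

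Other genes of the same machinery were taken from further lists. Of 81 further cilium genes, 80 were measured, and their median log2 ratio was 0.06, with 29 of 80 below 0 and 51 above it, where the members had 21 on each side. By the rule of a log2 ratio of at least 1, 1 was higher and 0 were lower (1.84% and 0.648% of all measured genes), and at 0.5 the counts were 5 and 2 (5.37% and 4.74%). The 1 past the first rule was Clrn1, the Usher gene for clarin-1, at 4.31 FPKM in control and 9.76 in mutant retina (fold 2.27, interval 1.96 to 2.64). Arl6, the small GTPase that recruits the BBSome to membranes, was at 75.8 and 124 FPKM (fold 1.63, interval 1.58 to 1.68), above each of the 7 BBS members in ratio, while the 8 further BBS genes split 4 and 4 about 0 with a median of -0.01. Tulp3, the tubby family member that works with IFT-A, was at 10.1 and 17.1 FPKM (fold 1.69, interval 1.59 to 1.80), whereas Tulp1 and Tub were on the lower side. Kif3b and Kif3c, partners of Kif3a in the same kinesin family, were on the same side as Kif3a, at 33.2 and 26.9 FPKM and at 30.0 and 24.2 FPKM. In a list of transition zone, basal body and other cilium genes, 29 of 39 were above 0 and 10 below, with a median of 0.06. The list also holds carriers, GTPases, kinases and other genes of different roles. Of these, Pde6d, Arl13b, Rab8a, Rab11a, Rab28, Rd3, Pcare, Mok and Cdk20 were above 0, and Inpp5e was below. Of the 8 connecting cilium members, 6 were below 0, but the lists are not alike in role and the difference was not tested. In the list of 39 genes, B9d1 was at 16.0 and 28.3 FPKM (fold 1.77, interval 1.59 to 1.97). Cep164, a distal appendage gene, was at 25.8 and 16.5 FPKM (fold 0.642) and Cc2d2a at 27.3 and 18.5 FPKM (fold 0.676).

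Of the factors that drive cilium genes in other tissues, Rfx2 was the 1 with a large difference. It was at 2.06 FPKM in control and 12.4 in mutant retina, a fold of 6.02 (interval 5.34 to 6.78), and both of its transcripts were higher in the mutant, NM_009056 at 0.490 and 4.66 FPKM and NM_027787 at 1.57 and 7.72 FPKM. Foxj1, the regulator of motile cilia, was level at 5.77 and 5.97 FPKM, and Rfx1 was at 19.5 and 17.3 FPKM. Of the 6 measured factors, Rfx2 was the 1 past a log2 ratio of at least 1 in the upward direction, against 1.84% of all measured genes. In the downward direction 0 were past it, against 0.648%. Of 11 motile cilium markers, 4 were measured, and those with usable transcripts summed to 20.3 FPKM in control and 17.7 in mutant retina.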

How the data were processed

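Total RNA from the retinas was made into libraries by standard Illumina methods, per the labels' protocols. Per the submitters' processing notes, the tools were TopHat2 2.0.8 (alignment) and Cuffdiff 2.1.1 (quantification), on the mm10 build. The deposited values are the authors' FPKM per RefSeq transcript and the authors' q-values, in 2 tables, per the file headers. The table with gene symbols was the main source. FPKM was summed over a gene's transcripts, leaving out genes with any failed or excessive-data transcript or with no transcript of status OK (15318 genes stayed). Fragments were recovered from the steps between low FPKM values: in the control, 72.9% of 306 low values fell within 10% of a step from a whole multiple of it, in the mutant 71.3% of 327, and 3 fragments over 1 kb equal 0.0621 and 0.0534 FPKM. A fragment length of 150 bases was assumed. PCR copies make fragments less than independent, so intervals cover counting error only.

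The members, the gene lists, the split by photoreceptor enrichment and the measures were chosen with earlier results of these data known. All members were named, together with the targeted genes and, from each other list, genes among the 2 at each end, of which some are not reported here. Genes named outside that rule (Lim2 and the overlapping neighbours) were chosen after their values were seen. Coordinates are from GENCODE M21 on GRCm38 and promoters from RefSeq (GRCm38.p6), and Ift122, Ift80, Rp1, Rp1l1 and Ush1c had no promoter entry. Calculations used Python 3.11.15, numpy 2.4.6, pandas 2.3.3, scipy 1.17.1 and matplotlib 3.10.9, and were tested on simulated data.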

Additional observations from a re-analysis of the deposited data

How the results depend on the processing

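With 1 library per group no replicate could be left out. No paired analysis was possible because each group has 1 library. Under 8 alternatives, no member that was kept passed a log2 ratio of 1 in either direction. Ush1c was kept only without the filter on low values, where the 1 FPKM added to each value held its log2 ratio to 0.36. With a pseudocount of 0.1 FPKM, 2 members in place of 1 were higher by at least 0.5, Cdh23 (0.62) joining Ift57. In the other deposited table, whose control values were a median of 0.972 times and mutant values 1.01 times those of the first, the group medians were 0.0349 for disc, -0.18 for axoneme and -0.11 for connecting cilium genes. There 3 of 42 members changed sign (Prom1 at 0.03, Cep290 at 0.02 and Bbs4 at 0.05), and in the other 7 alternatives 0 did. With only the transcript of highest mean level, the disc median was -0.10 and the connecting cilium median -0.23. At a pseudocount of 5 FPKM, Ift57 was at 0.60. Over all genes, the numbers higher and lower by at least 1 were 390 and 180 at a pseudocount of 0.1 FPKM, 92 and 33 at 5 FPKM, and 156 and 56 among genes of at least 5 FPKM, against 245 and 86. Depth limits Ush1c, Kif17 and Cdh23 most, as their intervals show.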

Other observations

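Ahi1 also differed in isoform use, and was picked out after its values were seen. Its short transcript NM_001177776 (2067 bases) was at 0.00642 FPKM in control and 3.85 in mutant retina, while the long NM_026203 (4851 bases) was at 42.4 and 36.8 FPKM, a difference in share of 9.46 points. In the authors' deposited table the q-value of the short transcript was 0.832. The 3 Cdh23 transcripts, each of 11090 bases, also divided their low level differently: NM_023370 was at 0.247 FPKM in control and 0.000112 in mutant retina, and NR_045556 at 0.252 and 0.646 FPKM.

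Among the motile cilium markers, Dnah9, an outer arm dynein heavy chain listed as Dnahc9, was at 4.62 FPKM in control and 1.32 in mutant retina (fold 0.287, interval 0.267 to 0.308), the 1 measured marker of 4 that was at least 2-fold lower.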
